A study of Mus musculus with 2 samples.

Results

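Direct-pathway-like striatal projection neurons were the 154 of 16213 quality-filtered cells, from 2 libraries of embryonic mouse cerebral cortex, that met a rule on detected genes. The rule asked for at least 1 unique molecular identifier (UMI) of *Gad1* or *Gad2*, at least 1 of *Ebf1* and at least 1 of *Isl1*, *Drd1* or *Tac1*. It also asked for 0 UMIs of 8 genes, which were *Lhx6*, *Adarb2*, *Drd2*, *Neurod6*, *Mki67*, *Top2a*, *Cldn5* and *Rgs5*. The members were thus chosen by the measured values of these genes, and the values of these genes are given only as a description.

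Both libraries came from WT embryos harvested at E16.5 that served as control animals of the EomesDot line, named as an *Eomes-Cre* mouse line in the series title. They form a single group, with no treated or mutant animals. Embryonic cortex was sequenced in the study to look at signals between SST+ interneurons and cortical progenitors. The labels name no pooling of embryos and no sex, and whether each library held 1 embryo is not stated. P-values below rest on these 2 libraries only. They set differences between gated cell classes against the spread of such differences between the libraries, estimated over 5 classes together. How far they cover the spread between embryos is not known.

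Striatal projection neurons are the GABAergic output neurons of the striatum, and they arise from the lateral ganglionic eminence (LGE). Those of the direct pathway project to the substantia nigra and the internal pallidum, and in the adult they carry the dopamine receptor D1 (*Drd1*), substance P (*Tac1*) and dynorphin (*Pdyn*). Those of the indirect pathway project to the external pallidum and carry the dopamine receptor D2 (*Drd2*) and enkephalin (*Penk*). The transcription factors ISL1 and EBF1 act in the differentiation of direct-pathway neurons, and SP9 and SIX3 in that of indirect-pathway neurons.

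Library 1 held 9049 barcodes with 46398156 UMIs and library 2 held 13556 barcodes with 64324236 UMIs. Between 1500 and 60000 UMIs and under 10% mitochondrial UMIs were found in 5966 and 10247 barcodes, respectively. The libraries shared 40 barcode sequences, 21 of them among the filtered barcodes, and 1 member barcode of library 1 was also present in library 2. The members made up 0.922% of the filtered cells in library 1 (55 cells, exact 95% binomial interval 0.695 to 1.20%) and 0.966% in library 2 (99 cells, 0.786 to 1.18%). The intervals cover counting error only, and the mean share was 0.944% ± 0.0313 (SD, n = 2). Median depth was 4051 and 3956 UMIs per member, with 2004 and 1931 genes detected. The share of mitochondrial UMIs was 5.81% and 4.16%. A doublet score (Scrublet) placed 2 of the 55 and 4 of the 99 members among the highest-scoring cells of their library.

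*Ebf1* (ENSMUSG00000057098), a transcription factor gene at 44618100 to 45008096 on chromosome 11 of GRCm38.p6, was the most widely detected of the rule's positive genes, as every member had to hold it. Members held a median of 26 *Ebf1* UMIs, with a range of 1 to 112. A single *Ebf1* UMI was found in 15 members and at least 4 in 130. *Isl1* (ENSMUSG00000042258, chromosome 13, 116298270 to 116309688), a LIM homeobox gene, was found in 148 members, with 464 UMIs in all and a median of 2 per cell. Of the 154 members, 139 were admitted through *Isl1* alone.

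The adult marker genes of the direct pathway were almost undetected. *Drd1* gave 7 UMIs in 7 members, 1 in each. *Tac1* gave 16 UMIs in 9 members, with at most 5 in a cell. No member held UMIs of all 3 of *Isl1*, *Drd1* and *Tac1*, and 10 held UMIs of at least 2 of them. *Pdyn* was found in 0 of 154 members, which allows up to 1.95% of cells with a UMI and sets no limit on cells that express the gene, and the muscarinic receptor gene *Chrm4* was also at 0. These genes were sparse in the libraries as a whole, with *Drd1* in 72 and *Pdyn* in 27 of the 16213 cells. *Tac1* had 608 UMIs in 230 cells, of which the members held 2.63%. In these members the name direct-pathway-like rests on *Ebf1* and *Isl1*, both genes of the rule. *Tac1* was higher in cells that the rule left out for *Adarb2* alone, with the values given below.

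**Figure D1:**
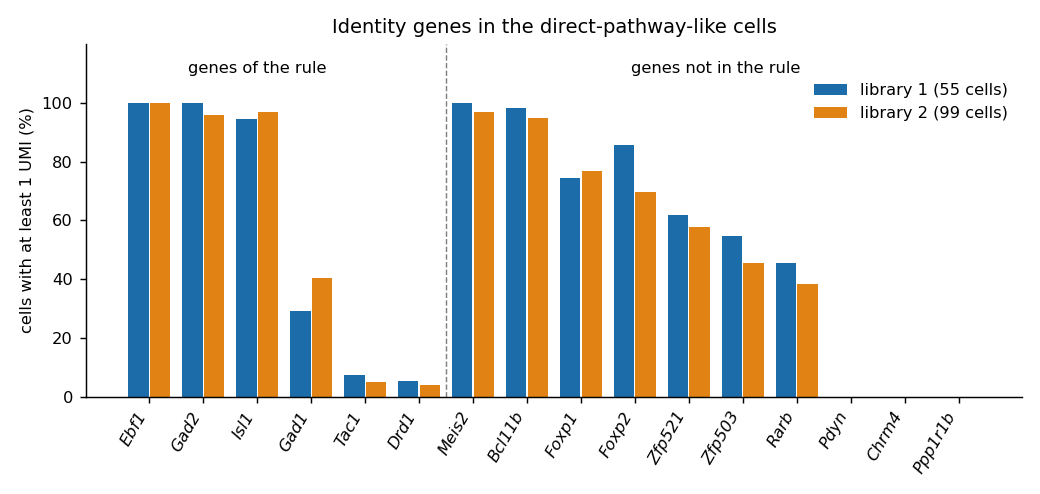
Percent of direct-pathway-like cells with at least 1 UMI of each gene, for library 1 (55 cells) and library 2 (99 cells), with the genes of the rule left of the dashed line. Among genes outside the rule, Meis2 and Bcl11b were found in nearly all members, Foxp1 in 74.5% and 76.8%, and Pdyn, Chrm4 and Ppp1r1b in none.

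Transcription factors of striatal projection neurons that the rule did not use were widely detected. *Foxp1* (ENSMUSG00000030067, chromosome 6, 98925342 to 99522746) was found in 74.5% of members in library 1 and 76.8% in library 2. Among MGE interneuron-like cells, which come from the medial ganglionic eminence and were gated on *Lhx6*, the shares were 34.9% and 27.4% at median depths of 3408.5 and 3926.5 UMIs. With each cell thinned to 1500 UMIs, *Foxp1* was found in 61.8% and 56.6% of members and in 17.2% and 12.8% of MGE interneuron-like cells. *Foxp2* (ENSMUSG00000029563, chromosome 6, 14901349 to 15441977) was found in 85.5% and 69.7% of members, and in 9.7% and 8.5% of MGE interneuron-like cells. After thinning, the *Foxp2* shares were 69.1% and 61.6% against 5.0% and 3.7%. Both forkhead genes were thus found in a larger share of members than of the interneuron-like cells in each library. *Bcl11b*, which encodes CTIP2, was found in 148 members, and *Meis2*, a homeobox gene of the LGE lineage, in 151. The zinc finger gene *Zfp503* was found in 54.5% and 45.5% of members and in 0.8% and 1.8% of MGE interneuron-like cells. The retinoic acid receptor gene *Rarb* was found in 63 members.

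*Foxp1* and *Foxp2* were found together in 92 of the 154 members. *Foxp1* alone was found in 25, *Foxp2* alone in 24 and neither in 13. In the 130 members with at least 4 *Ebf1* UMIs, 7 held neither gene, whereas among the 24 with 1 to 3 *Ebf1* UMIs, 6 held neither. Most members thus held UMIs of both forkhead genes, and the cells with few *Ebf1* UMIs included a larger share with neither.

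For levels, UMIs were summed over the cells of each class in each library and scaled to the total of the class, as counts per 1e6 UMIs (CPM). The other classes were gated on different genes. Indirect-pathway-like cells (66 and 110 cells) held *Gad1* or *Gad2* and *Drd2*, *Gpr6* or *Adora2a*, without *Ebf1*, *Isl1*, *Drd1* or *Tac1*. MGE interneuron-like cells numbered 238 and 328. *Meis2*+ GABAergic cells with *Sp8* or *Pax6* numbered 40 and 69, and excitatory neuron-like cells, which held *Neurod6* without *Gad1* or *Gad2*, numbered 1718 and 2819. Excitatory neuron-like cells also held no UMI of the gate genes *Lhx6*, *Adarb2*, *Ebf1*, *Isl1*, *Drd1*, *Tac1* and *Drd2*. The depth of the first 3 of these classes was close to that of the members, with medians of 3408.5 to 4251 UMIs, and that of excitatory cells was 7096 and 5778.

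*Foxp2* was at 2551 CPM in the members of library 1 and 1635 CPM in those of library 2. In the other classes it lay between 40.4 CPM, in MGE interneuron-like cells, and 299.9 CPM, in *Meis2*+ cells with *Sp8* or *Pax6*. *Zfp521*, a zinc finger gene, showed the same order, at 683 and 493 CPM in members and at most 102 CPM elsewhere. *Foxp1* followed another order, with 1510 and 1172 CPM in members, 3645 and 2780 CPM in indirect-pathway-like cells and 124 to 300 CPM in the remaining classes. *Bcl11b* stood at 2103 and 1738 CPM in members and at 1991 and 1581 CPM in indirect-pathway-like cells, and the values of both classes overlapped. *Rarb* also overlapped between them, at 399 and 298 CPM against 408 and 388 CPM, while the other 3 classes had 6.4 to 23.4 CPM.

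**Figure D2:**
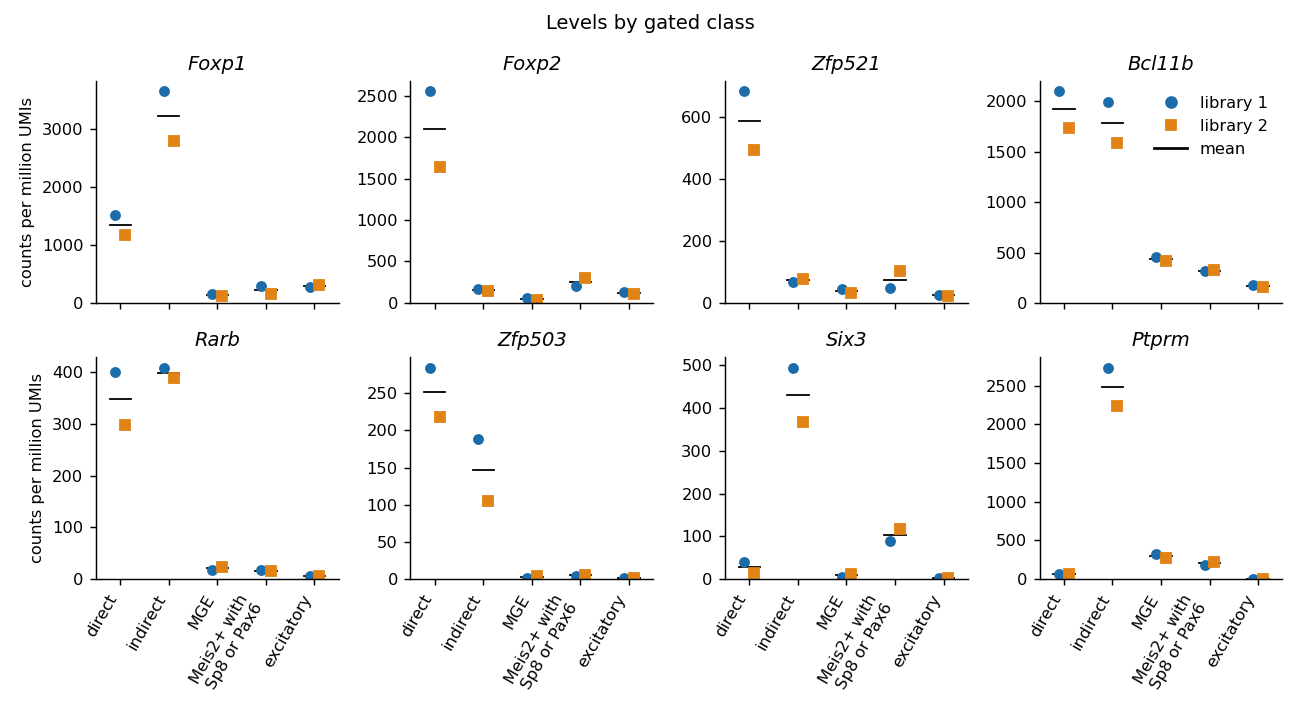
Summed level in CPM of 8 genes in 5 gated classes, with a circle for library 1, a square for library 2 and a line at their mean. Foxp2 and Zfp521 lay above the other classes in the members, Foxp1, Six3 and Ptprm were highest in indirect-pathway-like cells, and Bcl11b and Rarb overlapped between both projection neuron classes.

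Most lists of markers of other cell types had low sums in the members, and that of intercalated neurons of the amygdala did not. The rule had already removed cells with UMIs of *Lhx6*, *Adarb2*, *Neurod6*, *Cldn5* or *Rgs5*. Low sums of interneuron, excitatory, endothelial and mural genes were thus favored in advance, and they are given only as a description. All 6 genes of cholinergic neurons, the other striatal cells that use ISL1, were at 0, including *Chat*, *Slc18a3* and *Lhx8*. Over both libraries of the members a count of 0 allows up to 4.39 CPM. This list did not set the members apart from indirect-pathway-like cells, where it was also at 0. It summed to 0 and 3.09 CPM in *Meis2*+ cells with *Sp8* or *Pax6* and to 27.4 and 26.2 CPM in MGE interneuron-like cells. The 7 genes of MGE interneurons summed to 90.5 and 118 CPM, against 3545 and 3426 CPM in MGE interneuron-like cells, and *Nkx2-1* was at 0. The 8 genes of excitatory neurons summed to 28.8 and 61.3 CPM, against 2099 and 2019 CPM in excitatory neuron-like cells, with *Slc17a7* at 0. The 4 genes listed for intercalated neurons of the amygdala, a further LGE-derived type, summed to 2592 and 1724 CPM, against 105 to 368 CPM in each library of the other 4 classes. Most of it was *Foxp2*. *Oprm1* was at 28.8 and 68.1 CPM, *Prkcd* at 8.23 and 11.4 CPM and *Tshz1* at 4.1 and 9.1 CPM. Whether such cells are among the members was not tested.

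Radial glia genes summed to 683 and 556 CPM, of which *Fabp7* made up 486 and 429 CPM, to 440 and 1497 CPM in indirect-pathway-like cells and to 3652 and 6719 CPM in *Meis2*+ cells with *Sp8* or *Pax6*. The 5 globin genes summed to 1004 and 1494 CPM in members, 1093 and 1607 in indirect-pathway-like cells, 2618 and 6067 in MGE interneuron-like cells, 773 and 4517 in *Meis2*+ cells with *Sp8* or *Pax6* and 4057 and 7467 in excitatory cells. The part of free globin RNA in the differences between classes was not tested. The lists of oligodendrocyte, endothelial, mural, fibroblast and microglial genes summed to 45.3 CPM or less in each library, with *Pdgfra*, *Pecam1*, *Kcnj8*, *Acta2*, *Col1a1*, *Csf1r* and *Aif1* at 0. Cajal-Retzius genes summed to 4.1 and 24.98 CPM with *Trp73* at 0, and genes of interneurons of caudal and lateral origin to 28.8 and 31.8 CPM with *Vip* and *Scgn* at 0. The 7 stress genes summed to 61.7 and 63.6 CPM.

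At the edge of the rule, the cells left out for *Adarb2* alone outnumbered the members. *Adarb2* encodes an RNA-binding protein and is widely used to mark interneurons of caudal origin. Of 350 cells that met the rest of the rule, 196 (56.0%) held at least 1 *Adarb2* UMI, 92 in library 1 and 104 in library 2. They held a median of 3.5 and 4 *Adarb2* UMIs. The same step removed 12% of the cells that met the rest of the indirect-pathway-like gate, 12.4% of those of the MGE gate, 61.8% of those of the gate on *Meis2* with *Sp8* or *Pax6* and 11.0% of those of the excitatory gate.

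The cells left out for *Adarb2* had a similar level of *Ebf1*, at 8101 and 7245 CPM against 7765 and 6764 CPM in members, and of *Isl1*, at 539 and 616 CPM against 695 and 670 CPM. *Tac1* was at 164 and 171 CPM in them and at 16.5 and 27.3 CPM in members. *Foxp1* was at 2503 and 2300 CPM against 1510 and 1172 CPM, and *Rarb* at 841 and 912 CPM against 399 and 298 CPM. The opioid receptor gene *Oprm1*, a marker of striosomes, was at 133 and 121 CPM against 28.8 and 68.1 CPM. *Zfp503* differed in the other direction, at 104 and 94.9 CPM against 284 and 218 CPM. In both libraries the cells with *Adarb2* thus held more *Tac1*, *Foxp1*, *Rarb* and *Oprm1* and less *Zfp503*. No test was made across the rule.

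Levels among the members also differed with their number of *Ebf1* UMIs. The 24 members with 1 to 3 *Ebf1* UMIs (7 and 17 cells) had 240 and 410 CPM of *Foxp1*, 993 and 967 CPM of *Foxp2* and 103 and 352 CPM of *Zfp521*. The 130 members with at least 4 *Ebf1* UMIs had 1684 and 1312 CPM of *Foxp1*, 2764 and 1758 CPM of *Foxp2* and 762 and 519 CPM of *Zfp521*. All 3 genes were thus lower in both libraries where *Ebf1* was sparse. Just outside, 212 cells met the rule without *Ebf1*, with 433 and 456 CPM of *Foxp1* and 1101 and 1120 CPM of *Foxp2*. A further 68 cells lacked *Isl1*, *Drd1* and *Tac1* alone, and 18 lacked *Gad1* and *Gad2* alone.

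**Figure D3:**
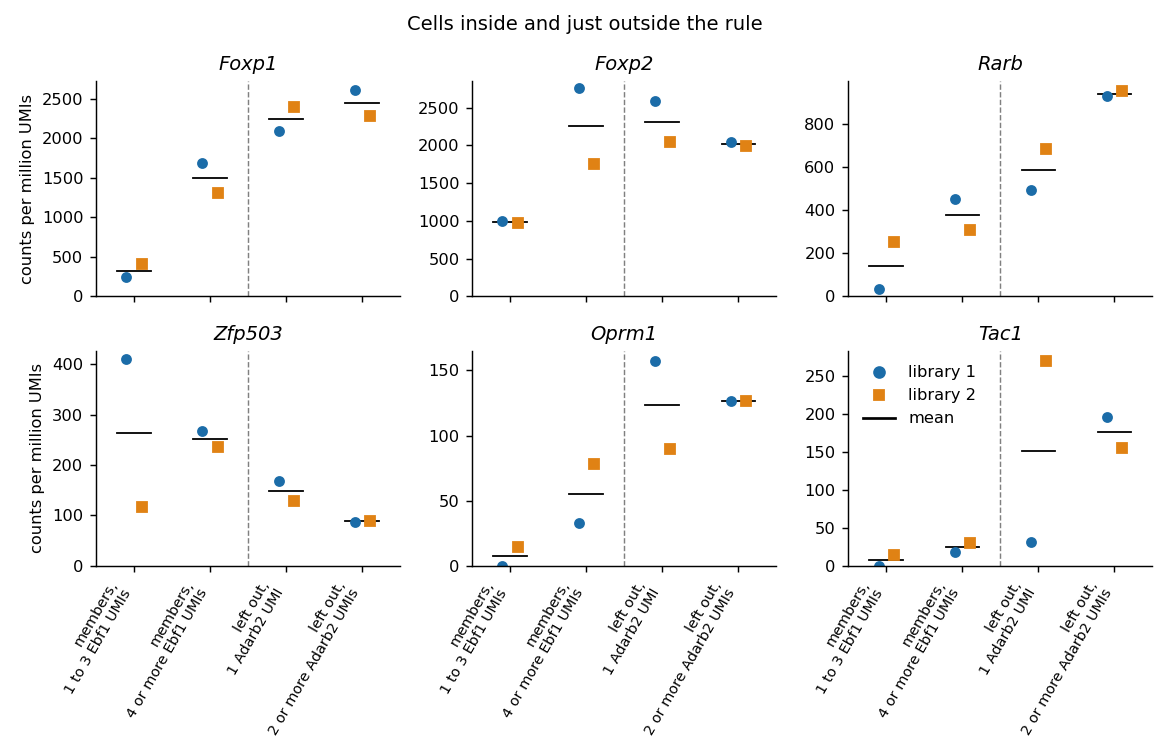
Summed level in CPM of 6 genes in members with 1 to 3 or at least 4 Ebf1 UMIs and, right of the dashed line, in cells left out only because 1 or at least 2 Adarb2 UMIs were found; a circle is library 1, a square library 2 and a line their mean. Tac1, Rarb and Foxp1 were higher and Zfp503 was lower in cells with at least 2 Adarb2 UMIs than in members with at least 4 Ebf1 UMIs.

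To see in which genes the members differed from the other projection neurons, they were compared with indirect-pathway-like cells. Of 14845 genes tested in edgeR's quasi-likelihood test on the summed counts, 398 (2.68%) passed an adjusted p-value under 0.05. Of these, 184 (1.24% of all genes tested) were higher and 214 (1.44%) lower in direct-pathway-like cells. Without library 2 of the members the count was 254, and with every cell thinned to 1500 UMIs it was 190. Where a library of the members is left out, 1 sum remains for them, which is assumed to vary like the sums of the other classes. The genes of all gates were left out. The comparisons below share the direct-pathway-like sums, so they are not independent of each other.

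Of the 7 genes listed for the direct pathway beside the rule, 4 had enough counts to be tested, and 2 were higher in the members, with a median log2 fold change of 2.09 (all genes tested, -0.00034). *Zfp521* was at 683 and 493 CPM in members and 67.4 and 77.6 CPM in indirect-pathway-like cells, which did not overlap. Its log2 fold change was 2.92 ± 0.21 (SE) with an adjusted p-value of 1.38e-41. *Sfxn1*, a mitochondrial serine transporter gene, was at 57.6 and 45.4 CPM against 17.8 and 13.9 CPM, with a log2 fold change of 1.70 ± 0.48 (SE, adjusted p = 0.0170). Its call was lost with DESeq2, after thinning and without either library of the members. *Eya1* (adjusted p = 0.690) and *Plxnd1* (adjusted p = 0.982) did not pass. *Pdyn*, *Chrm4* and *Slc35d3* had too few counts.

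Of the 7 genes listed for the indirect pathway, all 5 that could be tested were lower in the members, with a median log2 fold change of -4.15. *Ptprm* (ENSMUSG00000033278, chromosome 17, 66666848 to 67354491), a receptor tyrosine phosphatase of cell contacts, was at 61.7 and 70.4 CPM in members. In indirect-pathway-like cells it was at 2729 and 2233 CPM, with a log2 fold change of -5.19 ± 0.23 (SE, adjusted p = 2.19e-108). *Six3* was at 41.2 and 13.6 CPM against 493 and 366 CPM, and *Sp9* at 20.6 and 24.98 CPM against 408 and 245 CPM. Both transcription factor genes were far lower in each library of the members, with log2 fold changes of -4.15 ± 0.29 (SE, adjusted p = 1.90e-44) and -3.72 ± 0.30 (SE, adjusted p = 6.60e-33). *Grik3*, a kainate receptor gene, had a log2 fold change of -3.14 ± 0.23 (SE, adjusted p = 1.70e-38). *Penk* was sparse, at 0 and 4.54 CPM against 28.4 and 67.6 CPM (log2 fold change -4.21 ± 1.05, SE, adjusted p = 0.00324), and its call was lost without library 2 of the members.

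Of the 18 genes shared by both kinds of projection neuron, 17 were tested, of which 3 were higher and 4 lower in the members. The median log2 fold change was -0.07. *Foxp2* had a log2 fold change of 3.69 ± 0.20 (SE, adjusted p = 2.84e-76), from 174 and 141 CPM in indirect-pathway-like cells. *Foxp1* had one of -1.27 ± 0.17 (SE, adjusted p = 1.06e-11). The forkhead genes thus differed in opposite directions. With the *Adarb2* step left out of both gates, an alternative chosen after seeing the data, the log2 fold change of *Foxp1* was -0.49 with an adjusted p-value of 0.051, and *Rarb* turned from -0.24 (adjusted p = 0.829) to 0.84 (adjusted p = 3.24e-07).

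*Gucy1a1*, a subunit of the nitric oxide receptor, was at 86.4 and 148 CPM in members and 905 and 952 CPM in indirect-pathway-like cells (log2 fold change -2.97 ± 0.20, SE, adjusted p = 1.10e-47). *Arpp21*, a phosphoprotein of the cAMP pathway, had a log2 fold change of -1.64 (adjusted p = 2.83e-09), which was lost with *Adarb2* allowed (-0.51, adjusted p = 0.087). *Ikzf1*, which encodes IKAROS, was at 45.3 and 40.9 CPM against 0 and 3.98 CPM, and its call was lost with DESeq2 and without library 2. *Zfp503* was higher by 0.82 on the log2 scale (adjusted p = 0.0141), but the call was lost with DESeq2, after thinning, under a mitochondrial limit of 5%, with *Adarb2* allowed and without either library. *Bcl11b*, *Rxrg* and *Pde10a* were not called, with log2 fold changes of 0.09, 0.43 and -0.34.

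**Figure D4:**
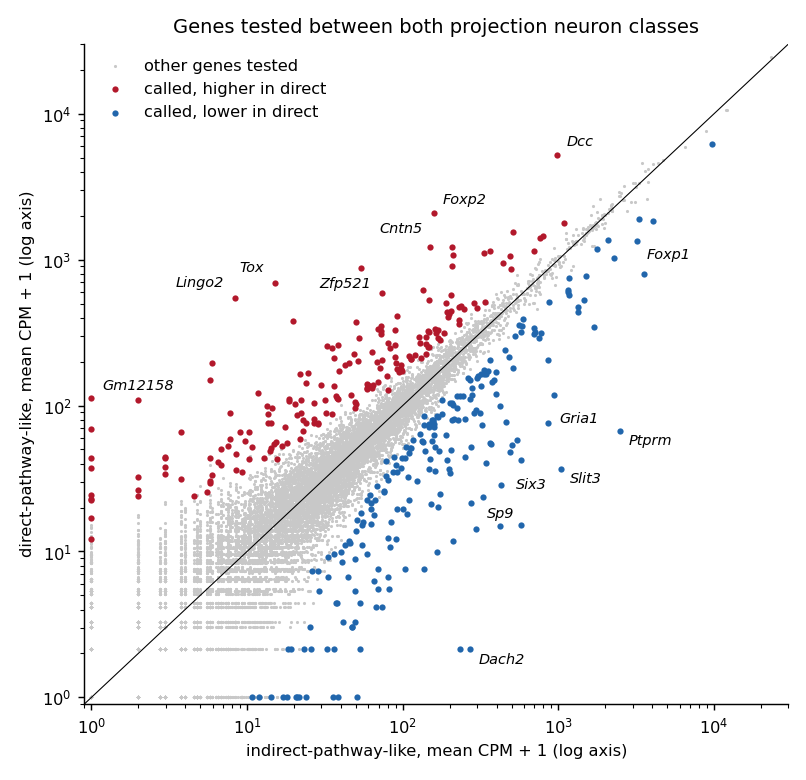
Mean CPM plus 1 of each of the 14845 genes tested, in direct-pathway-like cells (vertical, log axis) against indirect-pathway-like cells (horizontal, log axis), with called genes in red where higher and in blue where lower in direct-pathway-like cells and the line of equal level in black. Dcc, Foxp2, Cntn5 and Tox lay above the line, and Foxp1, Ptprm, Slit3, Six3 and Sp9 below it; Gm12158 overlaps Ebf1, a gene of the rule.

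Outside these lists, *Lingo2*, which encodes a leucine-rich repeat membrane protein, was at 494 and 595 CPM in members and 10.6 and 3.98 CPM in indirect-pathway-like cells (log2 fold change 6.41 ± 0.34, SE, adjusted p = 3.55e-74). *Tox*, an HMG-box gene, was at 798 and 581 CPM against 14.2 and 13.9 CPM (5.55 ± 0.30, SE). *Col25a1*, a membrane collagen gene, was at 107 and 109 CPM against 0 and 1.99 CPM, and the cadherin gene *Cdh12* at 144 and 154 CPM against 3.5 and 6.0 CPM. These 4 genes were far apart between the classes in both libraries. *Nefl*, the light neurofilament gene, was at 20.6 and 52.2 CPM in members and at 0 in indirect-pathway-like cells, at least 10.7-fold higher against a limit of 3 counts over the group. *Stra6l* and *B230216N24Rik* were likewise at least 6.12-fold and 5.74-fold higher. *B230216N24Rik* overlaps *Pam* on the same strand and *8030451A03Rik* overlaps *Tnc* on the opposite strand, so their reads cannot be told from those of these genes. After thinning, the calls of *Nefl* and *B230216N24Rik* were lost, as were that of *B230216N24Rik* under a mitochondrial limit of 5% and that of *Stra6l* with no low-count filter. *Plekhg5* and *8030451A03Rik* came mostly from 1 cell each, with 32 of 34 and 23 of 31 UMIs, and without high-scoring doublets the latter was no longer higher. Its call was also lost after thinning, and that of *Plekhg5* under the 5% limit and without library 1. *Gm12158* was at 132 and 93.1 CPM in members and 0 in the other class, but it lies inside *Ebf1* on the opposite strand. Without stated strand counting its reads cannot be told from those of a gene the rule used, and its call was lost with DESeq2.

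Lower in the members were *Dach2*, a cofactor gene of the *Dach* family, at 0 and 2.27 CPM against 358 and 177 CPM (log2 fold change -7.37 ± 0.55, SE, adjusted p = 1.70e-38), and the utrophin gene *Utrn*, at 0 and 2.27 CPM against 277 and 189 CPM. *Ndst3*, an enzyme of heparan sulfate synthesis, was at 12.4 and 15.9 CPM against 618 and 533 CPM. At 0 in both libraries of the members were 5 genes, *Gm9984*, *Gm19583*, *Me3*, *Nrgn* and *Tacr1*, and were at least 8.13-, 7.84-, 5.81-, 4.93- and 4.64-fold lower. The calls of *Gm9984*, *Gm19583*, *Me3* and *Tacr1* were lost without either library of the members. That of *Nrgn* was lost without library 2 and after thinning, and that of *Tacr1* also with no low-count filter and with at least 4 *Ebf1* UMIs required. *Gm9984* and *1700016K05Rik* lie inside *Ptprm* on the opposite strand, so their reads cannot be told from those of *Ptprm*.

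Among the genes called higher than in indirect-pathway-like cells, the 10 with the highest CPM in the members were taken after the values had been seen. Among them were *Dcc*, *Foxp2*, *Zbtb20*, *Stmn2*, *Anks1b*, *Pbx3*, *Cntn5*, *Cadm1* and *Kcnd2*. *Pbx3*, a homeobox gene that encodes a partner of MEIS proteins, was at 1436 and 1015 CPM against 195 and 217 CPM (log2 fold change 2.51 ± 0.18, SE, adjusted p = 3.86e-41). *Cadm1*, a synaptic adhesion gene, was at 1132 and 1165 CPM against 316 and 414 CPM. *Stmn2* and *Anks1b*, of growing axons and synapses, differed by less, with log2 fold changes of 0.86 and 0.88. *Zbtb20* (0.67) lost its call without library 2 and *Kcnd2* (0.70) without library 1 and with DESeq2, and both lost it with no library term.

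Axon guidance genes were called in both directions, 4 higher and 5 lower of 36 tested, with a median log2 fold change of 0.13. The netrin receptor gene *Dcc* was at 5506 and 4956 CPM in members and 1090 and 871 CPM in indirect-pathway-like cells (log2 fold change 2.41 ± 0.18, SE, adjusted p = 2.90e-36). The netrin receptor gene *Unc5d* went the other way, at 16.5 and 65.9 CPM against 571 and 583 CPM (-3.61 ± 0.27, SE). Both netrin receptor genes were thus separated between the classes, in opposite directions. *Slit3*, which encodes a ROBO ligand, was at 8.23 and 63.6 CPM against 1192 and 871 CPM (-4.54 ± 0.23, SE, adjusted p = 1.57e-81), while the receptor genes *Robo1* (0.23) and *Robo2* (-0.08) did not pass. Under the 5% mitochondrial limit *Robo1* was called higher (0.703, adjusted p = 0.0071). The semaphorin receptor gene *Nrp1* was at 111 and 93.1 CPM against 10.6 and 27.8 CPM, and *Sema3c* at 53.5 and 31.8 CPM against 3.55 and 5.97 CPM. *Epha5*, *Epha7* and *Plxna4* were lower by log2 fold changes of -1.33, -2.08 and -1.26, and the call of *Plxna4* was lost without library 1 of the members. *Sema6d* (0.64) was the fourth gene called higher, a call lost with DESeq2, with no library term and without either library. The calls of *Sema3c* and *Sema6d* were lost after thinning and under the 5% limit.

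Of 19 synaptic adhesion genes, 4 were higher and 2 lower, with a median of -0.12. *Cntn5*, a contactin gene, was at 1486 and 940 CPM against 99.4 and 197 CPM (log2 fold change 2.91 ± 0.19, SE, adjusted p = 2.08e-51). *Nlgn1*, a postsynaptic neuroligin gene, was at 403 and 300 CPM against 63.9 and 79.5 CPM (2.20 ± 0.26, SE, adjusted p = 1.56e-15). *Nrg3* had a log2 fold change of 1.67, and its call was lost without library 1, under the 5% mitochondrial limit and with at least 4 *Ebf1* UMIs required. It was also lost after thinning (0.895, adjusted p = 0.887) and with *Adarb2* allowed (0.455, adjusted p = 0.62). *Nrxn3* was lower by -0.66 (adjusted p = 0.0231), a call lost without either library and without the library term, and *Erbb4* by -1.29. The call of *Erbb4* was lost with DESeq2, with only the 2 compared classes fitted, without library 1 (-0.66, adjusted p = 0.696), after thinning (-0.87, adjusted p = 0.416) and with *Adarb2* allowed (-0.19, adjusted p = 0.856).

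Of 24 synaptic receptor and transporter genes, 2 were higher and 2 lower, with a median of -0.21. The AMPA receptor genes differed in direction. *Gria1* was at 41.2 and 109 CPM in members and 749 and 970 CPM in indirect-pathway-like cells (log2 fold change -3.43 ± 0.24, SE, adjusted p = 1.90e-44). *Gria4* was at 333 and 248 CPM against 67.4 and 35.8 CPM (2.56 ± 0.28, SE, adjusted p = 5.09e-17). *Gabrb1* (2.64), a GABA receptor subunit gene, was also called, and its call was lost with DESeq2, under the 5% mitochondrial limit, without library 2 of the members and with *Adarb2* allowed (0.918, adjusted p = 0.438). DESeq2 called 1 of the 24 genes higher and 1 lower.

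Of 15 receptor genes of neuromodulators, 4 were lower and 0 higher in edgeR's quasi-likelihood test, with a median of -1.93. At an unadjusted p under 0.05, 8 were lower and 1 higher, and DESeq2 called 3 lower and 0 higher. *Grm5*, a metabotropic glutamate receptor gene, was at 57.6 and 56.8 CPM against 522 and 565 CPM (log2 fold change -3.28 ± 0.24, SE, adjusted p = 3.26e-39). *Chrm2*, a muscarinic receptor gene, was at 49.4 and 34.1 CPM against 163 and 133 CPM (-1.87 ± 0.33, SE). Its call was lost after thinning (adjusted p = 0.0505). *Tacr1*, a tachykinin receptor gene, was also lower, with the limits given above. Among 19 genes of the cAMP cascade, which passes dopamine signals on, *Rgs2* was higher (1.47, lost without either library, after thinning and under the 5% limit) and *Gnal*, *Arpp21*, *Pde4b* and *Pde7b* were lower. *Pde4b* was at 305 and 107 CPM against 955 and 752 CPM (-2.20 ± 0.19, SE). The call of *Gnal*, the G protein subunit gene of the D1 receptor pathway, was lost without library 2 and with *Adarb2* allowed (-0.59, adjusted p = 0.289), and that of *Pde7b* after thinning.

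Of 7 neuropeptide genes tested, 3 were lower, and 1 with DESeq2. *Nts*, the neurotensin gene, and *Npy* joined *Penk*, but both rested on library 2 of the indirect-pathway-like cells, with 63.6 CPM of *Nts* against 0 in library 1 and 107 CPM of *Npy* against 14.2 CPM. The calls of both were lost with DESeq2, after thinning and without library 2 of the members, and that of *Nts* also under the 5% limit and with no library term. *Npy* was no longer lower without high-scoring doublets (0.53). Of 9 striosome genes, *Col11a1* was higher (1.91, adjusted p = 0.00777) and *Tshz1* lower, at 4.1 and 9.1 CPM against 128 and 77.6 CPM. The call of *Col11a1* was lost without library 2, after thinning, with at least 4 *Ebf1* UMIs required and under the 5% limit (1.11, adjusted p = 0.83). Of 6 matrix genes, *Id4* was lower, at 337 and 298 CPM against 610 and 539 CPM (-0.87 ± 0.17, SE), as was *Calb1* (-2.62, lost without library 1 and after thinning). The medians of both compartment lists were close to each other, at -0.46 and -0.49.

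Of 13 genes of LGE precursors, 1 was higher and 1, *Sp9*, was lower. Of 11 retinoid genes, 2 were higher, among them *Aldh1a3*, an enzyme of retinoic acid synthesis, at 41.2 and 88.6 CPM against 3.55 and 1.99 CPM. *Aldh1a3* lost its call without library 2. Of 7 radial glia genes, *Sox9* was lower, at 20.6 and 22.7 CPM against 107 and 109 CPM, a call lost after thinning (-2.46, adjusted p = 0.0597). Of 11 genes of DNA methylation, 0 were called by edgeR or DESeq2 and 0 had an unadjusted p under 0.05 in either, with a median of 0.05. Over all genes tested 2.68% were called, so 0 of 11 does not set these genes apart.

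**Figure D5:**
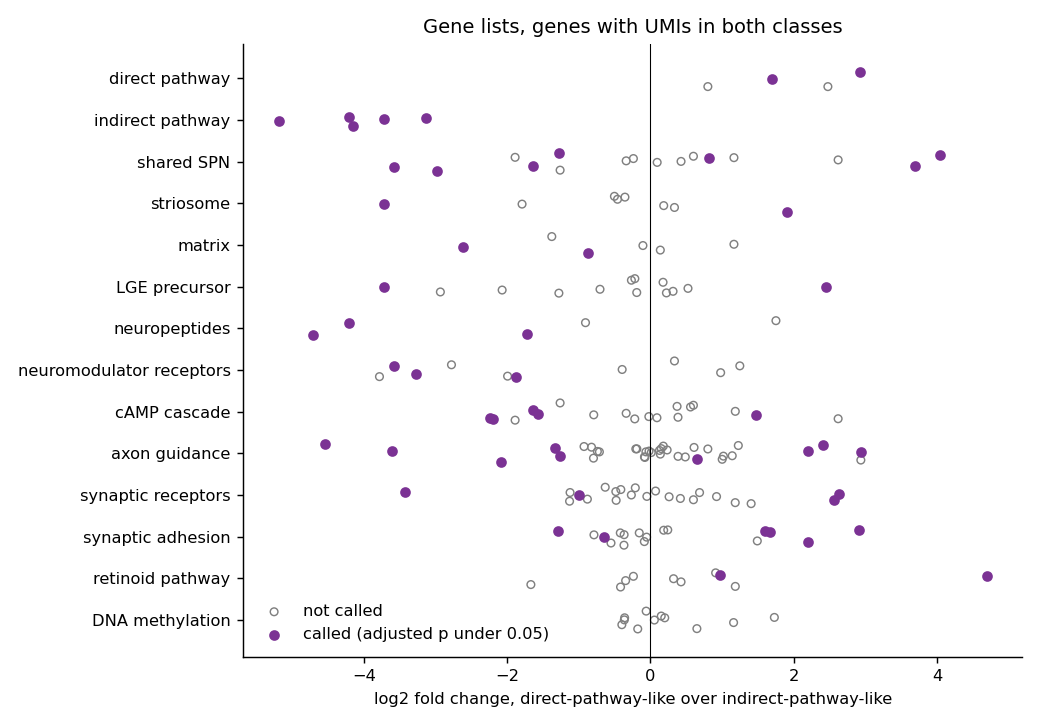
Log2 fold change of direct-pathway-like over indirect-pathway-like cells for each tested gene of 14 lists that had UMIs in both classes, with filled points for genes with an adjusted p-value under 0.05 in edgeR's quasi-likelihood test. All 5 tested indirect pathway genes lay between -5.19 and -3.14. The 4 tested direct pathway genes lay between 0.801 and 2.925, with 2 called. The other lists spread to both sides of 0 or held few called genes.

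To set the members against interneurons, they were compared with MGE interneuron-like cells. Here 1052 of 14845 genes (7.09%) passed, 436 (2.94%) higher and 616 (4.15%) lower in the members, and the median log2 fold change of all genes was -0.11. Without library 2 of the members, 561 passed. Of the 17 shared projection neuron genes tested, 9 were higher and 0 lower in edgeR's quasi-likelihood test, with a median of 2.39. Both counts were the same with DESeq2, and 1 gene was lower at an unadjusted p under 0.05 in edgeR. *Zfp503* was at 284 and 218 CPM against 2.03 and 4.25 CPM (log2 fold change 6.14 ± 0.35, SE, adjusted p = 1.22e-66), *Foxp2* had a log2 fold change of 5.34, *Rarb* of 3.95, *Foxp1* of 3.22 and *Bcl11b* of 2.08. The retinoid receptor gene *Rxrg* was at 82.3 and 68.1 CPM against 4.05 and 1.42 CPM. *Pde10a*, a phosphodiesterase gene of striatal neurons, differed by only 0.67, and its call was lost without either library, without high-scoring doublets, after thinning and under the 5% limit.

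The transcription factor genes *Zfhx3* and *Pou3f1* separated the members from MGE interneuron-like cells in both libraries. *Zfhx3* was at 1374 and 1365 CPM against 29.4 and 32.6 CPM (log2 fold change 5.40 ± 0.22, SE, adjusted p = 8.81e-129). *Pou3f1* was at 547 and 588 CPM against 15.2 and 12.1 CPM (5.37 ± 0.23, SE). The ephrin receptor gene *Ephb1* was at 428 and 352 CPM against 10.1 and 7.80 CPM. *Gm2164* and *Lncbate1* were also among the 10 genes with the highest fold, but they overlap *Pou3f1* and *Zfhx3* on the opposite strand. *Aldh1a3*, *Gm49678* and *Sox8* were at 0 in MGE interneuron-like cells, and at least 57.3-, 31.6- and 28.1-fold higher in members. Of 9 striosome genes tested, 3 were higher and 2 lower, with a median log2 fold change of -0.20. The opioid receptor gene *Oprm1* (3.72), *Lypd1* (4.84) and *Bach2* (0.63) were higher, and *Tshz1* (-3.17) and *Sema5b* (-1.16) were lower. The call of *Oprm1* was lost without library 2 of the members, that of *Bach2* without either library, and that of *Sema5b* without either library, with DESeq2, after thinning, with no low-count filter and with only the 2 compared classes fitted.

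All 7 genes of the MGE interneuron list were lower in the members. The members had to lack *Lhx6* and the MGE class had to hold it. Low levels of genes that go with *Lhx6* were thus favored by the gates in advance, and their p-values are only descriptive. *Sox6* was at 4.1 and 36.3 CPM against 1611 and 1445 CPM, *Maf* at 8.23 and 13.6 CPM against 636 and 655 CPM and *Sst*, the somatostatin gene, at 16.5 and 6.81 CPM against 326 and 422 CPM (log2 fold change -5.25 ± 0.32, SE, adjusted p = 4.35e-57). *Nkx2-1*, at 0 in members, was at least 11.6-fold lower. *Erbb4*, a neuregulin receptor gene of migrating interneurons, was at 24.7 and 132 CPM against 10370 and 9588 CPM (-6.84 ± 0.25, SE, adjusted p = 8.69e-160). *Gria1* was lower by -4.58, *Epha5* by -3.51 and *Nrg3* by -3.49. Of 13 LGE precursor genes, which MGE cells also use, 7 were lower, among them *Dlx1*, at 49.4 and 54.5 CPM against 333 and 217 CPM, and *Sox4* was higher (0.80).

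The guidance genes *Dcc* (3.25), *Robo1* (2.50) and *Sema3c* (3.94) were higher than in MGE interneuron-like cells, and *Unc5c* (-3.60) was lower. In all, 8 guidance genes were higher and 8 lower of 36. *Cntn5* and *Pbx3* were higher by 3.34 and 3.49. All 4 globin genes tested were lower by between -1.95 and -1.77, beside the list sums given above. Also called lower were *Col1a1*, *Col3a1* and *Dcn* of 4 fibroblast genes, *Vtn* of 2 mural genes and *Jun* of 7 stress genes tested. DESeq2 called 1 fibroblast gene lower and 0 mural or stress genes.

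Last, the members were compared with *Meis2*+ GABAergic cells that held *Sp8* or *Pax6*. This class was small, with 40 and 69 cells, and held the high radial glia sums given above. In this comparison 1228 genes (8.27%) passed, 618 (4.16%) higher and 610 (4.11%) lower, and 687 passed without library 2 of the direct-pathway-like cells. With DESeq2 the median of all genes moved from -0.0026 to -0.12.

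Of 17 shared projection neuron genes, 10 were higher and 0 lower in edgeR's quasi-likelihood test, with a median of 1.87. DESeq2 called 9 higher and 0 lower, and 0 were lower at an unadjusted p under 0.05 in edgeR. *Zfp503* was at 284 and 218 CPM against 4.4 and 6.2 CPM (log2 fold change 5.58 ± 0.47, SE, adjusted p = 2.69e-29). *Rarb* had a log2 fold change of 4.47, *Rxrg* of 3.86, *Foxp2* of 3.06, *Foxp1* of 2.71 and *Bcl11b* of 2.67. Of 4 direct pathway genes tested, only *Zfp521* (2.94) was called, and the median of that list was -0.066. Against MGE interneuron-like cells *Zfp521* was also the only 1 of these 4 genes called, with a list median of 0.677. *Ikzf1* was at 0 in the *Meis2*+ cells and at least 7.78-fold higher in the members. The indirect pathway genes *Sp9* (-2.71), *Six3* (-2.04), *Ptprm* (-1.52) and *Grik3* (-1.41) were lower in the members here too. Under a mitochondrial limit of 5% the calls of *Sp9* and *Grik3* were lost, and without library 2 of the members that of *Six3*. After thinning, the call of *Rxrg* was lost.

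Of 7 radial glia genes, 6 were lower, with *Fabp7*, a lipid-binding protein gene of radial glia, at 486 and 429 CPM against 2071 and 5507 CPM (log2 fold change -2.86 ± 0.19, SE, adjusted p = 1.10e-46) and *Vim* at 90.5 and 72.7 CPM against 1051 and 535 CPM. The progenitor gene *Nes* had 1 UMI in all members. Of 4 globin genes tested, *Hba-a1*, *Hba-a2* and *Hbb-bs* were called lower, with a list median of -0.826. DESeq2 called 0 of the globin genes, and these 3 turned direction in other settings given below. *Robo1* was at 3004 and 2782 CPM against 234 and 510 CPM (3.02 ± 0.20, SE, adjusted p = 2.18e-48), and *Cntn5* (3.13) was higher as well. *Erbb4* (-2.96), the neuregulin gene *Nrg1* (-1.86), *Sox6* (-3.66), *Nr2f2* (-3.42) and *Prox1* (-3.11) were lower. The muscarinic receptor gene *Chrm3* and *Ano3*, an anoctamin gene, were at 0 in the *Meis2*+ cells, and at least 8.85- and 9.39-fold higher. The call of *Chrm3* was lost without library 2 of the members, that of *Ano3* after thinning and that of *Prox1* under the 5% limit. *Dgkb* and *Celsr1* were at 0 in the members, and at least 23.2- and 12.01-fold lower.

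The study turns on the ephrin ligand gene *Efnb2*, its receptor gene *Epha4* and the DNA methyltransferase gene *Dnmt1*. *Efnb2* was at 152 and 70.4 CPM in the members, and at 103 and 101 CPM in indirect-pathway-like cells, which overlapped (log2 fold change -0.02, adjusted p = 1). Against MGE interneuron-like cells it was lower by -0.80 (adjusted p = 0.00607), a call lost with DESeq2, after thinning, under a mitochondrial limit of 5%, with *Adarb2* allowed and with only the 2 compared classes fitted. Without library 2 of the members the log2 fold change was -0.23 (adjusted p = 0.878). Against *Meis2*+ cells it was lower by -0.755 (adjusted p = 0.0434), which was lost in the same ways, with no library term, with no low-count filter and with at least 4 *Ebf1* UMIs required. Without library 2 it was -0.19 (adjusted p = 0.876). *Epha4* was at 716 and 672 CPM in the members. It was higher than in MGE interneuron-like cells, at 512 and 277 CPM (0.84 ± 0.17, SE, adjusted p = 1.21e-05), and than in *Meis2*+ cells, at 362 and 213 CPM (1.44 ± 0.20, SE, adjusted p = 2.16e-11). The former call was lost under a mitochondrial limit of 5% and without library 2. It was not called against indirect-pathway-like cells (0.14, adjusted p = 0.899).

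*Dnmt1* was sparse, at 20.6 and 54.5 CPM, and was called in none of the 3 comparisons, with log2 fold changes of -0.18, -0.01 and -0.56. Of the 11 DNA methylation genes, *Tet2* was lower than in MGE interneuron-like cells (-1.05) and *Uhrf1* lower than in *Meis2*+ cells, at 0 and 4.54 CPM against 22.1 and 37.1 CPM. Over all genes tested, 7.09% and 8.27% were called in these comparisons, so 1 of 11 in each does not set these genes apart. The call of *Tet2* was lost without library 2 of the members and under the 5% limit, and that of *Uhrf1* without either library, with DESeq2, under the 5% limit and with at least 4 *Ebf1* UMIs required. *Nrxn3* was at 6510 and 5830 CPM in members, lower than in MGE interneuron-like cells (-1.32, adjusted p = 2.57e-10) and not called against *Meis2*+ cells (-0.12), except after thinning (-0.58, adjusted p = 0.0148). *Nlgn1* was not called against either of these classes (-0.16 and -0.45).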

How the data were processed

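Droplet libraries of papain-dissociated cortex were made with the 10x Genomics single cell 3′ kit, version 3.1. The deposited values are raw UMI counts per gene and cell barcode, which the authors made with Cell Ranger (7.0.0 in the submitters' processing notes, 7.1.0 in the file headers) on mm10, with no normalization. Each library lists 32285 genes. Gene positions are from RefSeq on GRCm38.p6. GENCODE M39 served only to find overlapping genes.

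Barcodes were kept at 1500 to 60000 UMIs and under 10% mitochondrial UMIs. No doublets were removed, and removal by Scrublet score (scanpy 1.11.5, 0.8% for every 1000 barcodes) was an alternative. Cells are not replicates, so counts were summed per library and class. The 10 sums of 5 classes entered 1 quasi-likelihood fit of edgeR 4.0.16 (R 4.3.3) with TMM scaling and a block for the library. A gene needed 10 counts or more in 2 of the sums. Adjusted p-values follow Benjamini and Hochberg, across every gene tested. The 19 gate genes were left out, and genes under an adjusted p of 0.05 are called. The SE is the log2 fold change divided by the square root of F. The deep excitatory sums let many genes that are sparse in the members pass the count filter. DESeq2 1.42.0 was an alternative. The fit was tested on simulated data for the comparison with indirect-pathway-like cells, with 40 genes changed by each fold. It recovered 12 of those lowered 2-fold, 20 of those raised 2-fold, 33 of those lowered 4-fold and 40 of those raised 4-fold. Of 13570 genes tested, 10 unchanged ones were called. A gene that was not called can therefore still differ by 2-fold. Cells of a class share their library, which gives the pairing: across 10 pairs of classes, deviations in 1638 genes correlated at 0.00481 to 0.538 (median 0.292).

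Named genes were those of the rule, of the direct, indirect and shared projection neuron lists, the 10 called genes with the highest fold in each direction and at least 20 CPM, up to 4 called genes of each other list, and 5 genes of the study. The other called list genes were named after their values were seen. Where a class was at 0, a fold is a bound against 3 counts over the group. List medians use such bounds. The members and lists were chosen with earlier results of these data known. Planned comparisons of members with and without *Tac1* or *Isl1* were not run, since a stratum had under 10 cells in each library (4 and 5 with *Tac1*, 3 and 3 without *Isl1*). Some genes of the lists are counted but not reported here by name.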

Additional observations from a re-analysis of the deposited data

How the results depend on the processing

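The count of called genes against indirect-pathway-like cells was 398. It was 190 after thinning to 1500 UMIs, 148 with at least 2 of *Isl1*, *Drd1* and *Tac1* required (4 and 6 cells) and 254 to 310 when a library of the members was left out. Against MGE interneuron-like cells, 1052 became 647 with DESeq2, 675 under a mitochondrial limit of 5%, 546 after thinning, 295 with 2 of the 3 genes required, 561 to 734 with a library left out and 1651 with *Adarb2* allowed. Against *Meis2*+ cells, 1228 became 801 with DESeq2, 334 after thinning, 570 with only the 2 compared classes fitted, 226 with 2 of the 3 genes required and 687 to 886 with a library left out. With no replicate block the counts were 343, 944 and 1078. The *Adarb2* and *Ebf1* alternatives were chosen after seeing the data. *Adarb2* was allowed in the direct- and indirect-pathway-like gates only, so MGE interneuron-like and *Meis2*+ cells were still without it when set against members that could hold it. Where a library was left out, the lone sum of the members was assumed to vary like the other classes. By list, against indirect-pathway-like cells, DESeq2 called 1 direct pathway, 1 shared and 1 retinoid gene higher where edgeR called 2, 3 and 2. It called 2 striosome genes and 1 synaptic adhesion gene lower where edgeR called 1 and 2. Against MGE interneuron-like cells it called 1 striosome gene lower where edgeR called 2.

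The share of members, 0.944%, was 0.999% without high-scoring doublets, 0.996% under the 5% limit, 0.0628% with 2 of the 3 genes required, 0.595% when cells were thinned before the rule, 2.22% with *Adarb2* allowed and 0.802% with at least 4 *Ebf1* UMIs. With 1 library it was 0.922% to 0.966%.

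With 2 of the 3 genes required, 67 of the 398 genes called against indirect-pathway-like cells changed sign, 155 of 1052 against MGE interneuron-like and 184 of 1228 against *Meis2*+ cells. The median log2 fold change of all genes moved to -1.34, -3.60 and -1.26. Single named genes were not recomputed in those few cells.

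Among named genes under the other settings, directions turned, as log2 fold changes, for *Rarb* (0.84 with *Adarb2* allowed), *8030451A03Rik* (-0.034) and *Npy* (0.53) without doublets, all against indirect-pathway-like cells. Against MGE interneuron-like cells they turned for *Vim* (0.25 after thinning) and *Col3a1* (0.66 without doublets). Against *Meis2*+ cells they turned for *Hba-a1* (0.071 without doublets, 0.37 under the 5% limit, 0.056 with *Adarb2* allowed), *Hba-a2* (0.41 without doublets, 0.16 with *Adarb2* allowed) and *Hbb-bs* (0.20, 0.58 and 0.28, in the same order as *Hba-a1*). The cause was not tested. Of the single-gene values recomputed, 3400 kept direction and call, 355 lost the call, 14 gained it and 13 turned. With 243015 and 440288 UMIs in the members, sparse genes such as *Drd1* and *Tac1* could not be compared within them.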
